A study of Mus musculus with 12 samples.

Results

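The miRNAs described here are the 160 mature miRNAs that had at least 10 counts in both AGO2 miRNA libraries made from mouse cerebella at postnatal day 15 (P15). They were chosen by these measured counts, out of 1978 mature miRNAs listed in the count files, of which 498 had a count in at least 1 of the 2 P15 libraries. Their abundance is therefore a description and was not tested. AGO2 came from homozygous conditional Spy3-Ago2 mice, in which Cre switches on an AGO2 carrying the Spy3 tag. Cre was delivered to P0 pups by an AAV injected into the cerebral ventricles, under L7, a promoter used to restrict expression to Purkinje cells, the output neurons of the cerebellar cortex. The labels give the genotype as WT, while the treatment text describes Spy3-Ago2 homozygotes. Tagged AGO2 was taken from cerebellar lysate on a HaloLink resin coupled to HaloTag-SpyCatcher3, and its small RNAs were sequenced. The series holds 12 libraries in 6 groups of 2. Only the P15 miRNA group is described in depth, and P7 values appear as plain values beside it. The labels do not say which animals, or how many, gave each library.

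A miRNA precursor is a hairpin, and Dicer cuts from it a short duplex with 1 strand from the 5p side and 1 from the 3p side. AGO2 keeps one strand as the guide and releases the other, the passenger. Strand choice is known to follow the stability of the duplex ends and the first base of the strand, for which the AGO2 pocket accepts uracil and adenine best. The kept strand pairs with messenger RNAs mainly through its seed, bases 2 to 8, so the arm that is kept sets which messages can be bound. Many miRNA genes lie in clusters that are transcribed as 1 long RNA, and members of a cluster can still reach AGO2 in very different amounts.

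The P15 libraries held 169054 counts in replicate 1 and 94132 in replicate 2, with 453 and 348 miRNAs detected. A count of 0 allows up to 3 counts, which is 17.75 and 31.87 CPM (counts scaled to the library total) in replicates 1 and 2. The P7 miRNA libraries were far shallower, with 13059 and 6828 counts. Intervals below are exact at 95% and cover counting error only, with each count taken as independent. Copies made by PCR may have been counted, and the intervals would then be too narrow. The labelled cell type was checked against lists of miRNAs known for a cell type. Of 14 neuronal miRNAs, 9 were among the 160, and the list took 53.6% and 52.3% of counts. Nearly all of that came from miR-124-3p with miR-138-5p and miR-9-5p, while miR-137-3p (7 and 0 counts), miR-129-5p (16 and 3), miR-132-3p (23 and 3), miR-134-5p (12 and 7) and miR-7b-5p (2 and 0) fell short of 10 counts in a library. The muscle-type list, with 4 of 4 among the 160 and 1648 and 905 counts, was the largest of the non-neuronal lists. Epithelial miR-200 and miR-141 family members (5 of 5) were at 0 in both libraries. The lists for microglia and blood and for erythroid cells each summed to 6 and 0 counts, with miR-223-3p and miR-451a at 0 in both libraries. Mural miRNAs summed to 14 and 0 counts, endothelial ones to 42 and 11, ciliated ones to 16 and 4, those of sensory cells to 6 and 8, and those of dividing progenitors to 36 and 17. The oligodendrocyte list reached 0.354% and 0.20% of counts, nearly all of it miR-219a-5p. No miRNA on these lists marks Purkinje cells alone. In such bulk libraries fewer cells of a type and less RNA per cell cannot be told apart.

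RefSeq sequences (annotation of GRCm38.p6) were matched by name for 143 of the 160 miRNAs. The other 17 are miR-124-3p, miR-30d-5p, miR-328-3p, miR-30b-5p, miR-185-5p, miR-23b-3p, miR-378a-3p, miR-151-5p, miR-1a-3p, miR-133a-3p, miR-151-3p, miR-135b-5p, miR-487b-3p, miR-421-3p, miR-874-3p, miR-376c-3p and miR-187-3p. The sequences that the results turn on are printed 5′ to 3′, with the seed (bases 2 to 8) in capitals. The first 6 were picked from ranks 11 to 21, so their 6 different seeds describe the pick only. miR-30c-5p and miR-30e-5p, at ranks 16 and 17, share a seed and are printed with the miR-30 group.
miR-434-3p: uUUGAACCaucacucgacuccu
miR-133b-3p: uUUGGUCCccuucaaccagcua
miR-26a-5p: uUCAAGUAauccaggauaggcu
miR-342-3p: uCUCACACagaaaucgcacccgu
miR-495-3p: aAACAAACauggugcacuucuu
miR-219a-5p: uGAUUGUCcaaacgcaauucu
The next 9 share the let-7 seed GAGGUAG, and were all lower in replicate 2.
let-7a-5p: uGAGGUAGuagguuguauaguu
let-7f-5p: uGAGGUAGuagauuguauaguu
let-7i-5p: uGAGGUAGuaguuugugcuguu
let-7g-5p: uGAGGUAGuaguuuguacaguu
let-7c-5p: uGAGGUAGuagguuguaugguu
let-7d-5p: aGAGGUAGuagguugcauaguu
let-7b-5p: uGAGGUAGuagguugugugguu
let-7e-5p: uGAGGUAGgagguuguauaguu
miR-98-5p: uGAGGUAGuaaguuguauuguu
The next 7 belong to the miR-29 seed group AGCACCA and the miR-30 seed group GUAAACA, whose members took large or moderate shares of AGO2.
miR-29c-3p: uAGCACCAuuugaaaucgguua
miR-29b-3p: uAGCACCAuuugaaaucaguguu
miR-29a-3p: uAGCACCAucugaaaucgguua
miR-30c-5p: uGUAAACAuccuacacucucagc
miR-30e-5p: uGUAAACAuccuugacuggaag
miR-30a-5p: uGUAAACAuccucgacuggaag
miR-384-5p: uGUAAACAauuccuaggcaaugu
The last 12 are strands of hairpins in which both arms were found in AGO2. They show how far apart the seeds of the 2 arms of a hairpin are.
miR-9-5p: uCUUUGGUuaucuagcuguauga
miR-9-3p: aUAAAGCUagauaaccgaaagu
miR-434-5p: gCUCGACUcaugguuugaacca
let-7i-3p: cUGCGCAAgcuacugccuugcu
miR-376a-5p: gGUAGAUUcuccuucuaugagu
miR-376a-3p: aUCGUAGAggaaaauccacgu
miR-376b-5p: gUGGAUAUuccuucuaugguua
miR-376b-3p: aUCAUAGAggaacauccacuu
miR-330-5p: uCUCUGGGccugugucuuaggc
miR-330-3p: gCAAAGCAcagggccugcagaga
miR-340-5p: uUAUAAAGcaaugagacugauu
miR-340-3p: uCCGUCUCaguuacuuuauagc

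Below the 10 most abundant miRNAs, AGO2 at P15 carried a long tail in which no single species exceeded 1% of the counts. The 160 miRNAs together held 97.7% and 99.3% of the counts of replicates 1 and 2, a mean of 98.5% ± 1.08 (SD, n = 2). The 10 most abundant took 82.2% and 85.6%, and the same 10 led in each library alone. Ranks 11 to 40 took 9.63% and 8.63%, a mean of 9.13% ± 0.708 (SD, n = 2). Ranks 41 to 100 took 4.58% and 3.80%, and the ranks from there to 160 took 1.30% and 1.18%. Mean abundance fell from 7120 CPM at rank 11 to 1473 CPM at rank 40, 358 CPM at rank 100 and 106 CPM at rank 160. In the plot of CPM by rank, the libraries lie close together to about rank 40 and scatter more below it. The limit of 10 counts was 59.2 CPM in replicate 1 and 106 CPM in replicate 2, and 82 miRNAs reached it in replicate 1 only against 6 in replicate 2 only. Just inside it were miR-187-3p with 18 and 10 counts, miR-148b-3p with 10 and 17, and miR-3105-3p with 23 and 10. Just outside were miR-690 with 447 and 9 counts, miR-21a-5p with 43 and 9, and miR-350-3p with 38 and 9. Taken alone, replicate 2 had 166 miRNAs at 10 or more counts and replicate 1 had 242, more than 1.5 times the 160.

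**Figure D1:**
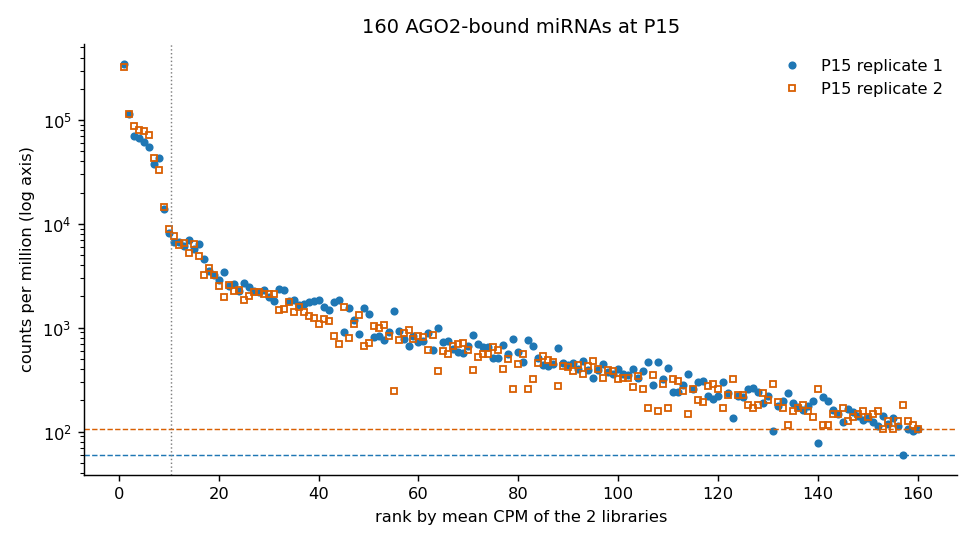
CPM on a log axis of the 160 miRNAs, ordered by the mean of the 2 P15 libraries; filled circles are replicate 1, open squares replicate 2, the dotted vertical line follows rank 10 and the dashed lines mark 10 counts in each library. Abundance falls from 337611 CPM at rank 1 to 106 CPM at rank 160, and the largest gaps between the libraries lie below rank 40.

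The leading miRNA below the top 10 was miR-434-3p, which lies antisense to the imprinted gene Rtl1 in the Dlk1-Dio3 locus. It had 1125 counts in replicate 1 and 714 in replicate 2, which is 6655 and 7585 CPM (7120 ± 658 SD, n = 2). The widely expressed miR-30d-5p had 1128 and 591 counts, or 6672 and 6278 CPM. miR-133b-3p, best known from muscle, followed with 1035 and 619 counts, or 6122 and 6576 CPM. The range of miR-30d-5p overlapped those of both others, while miR-434-3p was above miR-133b-3p in both libraries. miR-26a-5p, widely expressed in differentiated cells, had 1173 and 497 counts, or 6939 and 5280 CPM. miR-342-3p, encoded in an intron of Evl, had 965 and 599 counts, or 5708 and 6363 CPM. miR-30c-5p had 1077 and 459 counts, or 6371 and 4876 CPM, 5623 CPM on average, and closed the leading block. Within this block replicate 1 was led by miR-26a-5p and replicate 2 by miR-434-3p, so the libraries gave no common order.

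A step down came next. miR-30e-5p had 772 and 306 counts, or 4567 and 3251 CPM, and miR-328-3p, found in neurons among other cells, had 600 and 356 counts, or 3549 and 3782 CPM. miR-495-3p, a neuronal miRNA of the Dlk1-Dio3 locus, had nearly the same level in both libraries, 3194 and 3240 CPM from 540 and 305 counts. miR-484 had 488 and 239 counts. It is 1 of 2 members listed without an arm, the other being miR-1983 at rank 10 with 1396 and 836 counts. miR-219a-5p, a miRNA that promotes oligodendrocyte maturation, had 576 and 188 counts, or 3407 and 1997 CPM. The further oligodendrocyte miRNAs were scarce: miR-338-3p had 9 and 0 counts and miR-219a-2-3p 11 and 0. Whether miR-219a-5p came from tagged Purkinje cells or from other cells was not tested.

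The rest of ranks 11 to 40 lay between 2558 and 1473 CPM on average. miR-24-3p, which shares a transcript with miR-23 and miR-27, had 384 and 218 counts, or 2271 and 2316 CPM. miR-34a-5p, a p53-responsive miRNA, had 389 and 197 counts, or 2301 and 2093 CPM. miR-16-5p, known for restraining the cell cycle, had 307 and 116 counts, or 1816 and 1232 CPM. miR-206-3p, known from skeletal muscle, had 391 and 143 counts, or 2313 and 1519 CPM. With miR-1a-3p (125 and 76 counts) and miR-133a-3p (97 and 67 counts), all 4 muscle-type miRNAs were among the 160, at 0.975% and 0.961% of counts together. Others in this range were miR-30b-5p, let-7a-5p, let-7f-5p, miR-770-5p, miR-9-3p, miR-376a-3p, miR-193b-3p, miR-99b-5p, miR-136-5p, miR-185-5p, miR-139-5p, miR-551b-3p, miR-23b-3p, let-7i-5p and miR-181a-5p. Neighbours in this order could mostly not be told apart. Of 29 neighbouring pairs at ranks 11 to 40, 5 had the same order in both libraries, and 3 had values that did not overlap. The set was steadier than its order, since 26 of the 30 miRNAs were also at ranks 11 to 40 in each library alone. Over all 160, the median shift in rank between the libraries was 8.5 places and the largest was 69, for let-7b-5p.

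Most hairpins gave AGO2 mainly one arm, and for most of them it was the same arm in both libraries. The 5p and 3p arms were about equally common: 75 of the 160 were 5p strands, with 35.0% and 36.2% of all counts, and 83 were 3p strands, with 61.7% and 61.9%. The larger share of counts on the 3p side included miR-124-3p, the most abundant miRNA, with 59183 and 30606 counts. Among 802 hairpin names with both arms listed, 144 had at least 10 counts for the arms together in each library. The 5p arm was the greater in 72 and the 3p arm in 72. The greater arm was the same in both libraries in 138 of 144. In 13 the greater arm held 75% or less in each library. In 100 of the 144, 1 arm held at least 90% of the counts in each library, in 88 at least 95% and in 63 at least 99%. The median share of the greater arm was 99%, and the lesser arm had 0 counts in both libraries in 47. Arms of hairpin copies at several loci, such as miR-9, miR-29b, miR-125b and miR-138, share a mature strand and were counted as 1 hairpin. A hairpin enters this set by its summed counts, so an uncounted lesser arm of a scarce hairpin says little. For let-7b, 0 of 23 counts in replicate 2 allows a 3p share of up to 14.8%.

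Among abundant hairpins the exclusion of a strand could be measured closely. miR-124, the leading neuronal miRNA, had 0 counts of its 5p arm beside 59183 of 3p in replicate 1, and 1 beside 30606 in replicate 2. The upper limits of the 5p share were 0.00623% and 0.0182%. miR-29b gave 2 and 0 counts of 5p beside 9347 and 6686 of 3p, and miR-29a 3 and 0 beside 6323 and 4086. Both are hairpins of a family that targets extracellular matrix messages and rises as neurons mature. miR-125a, of the lin-4 family, gave 3 and 1 counts of its 3p arm beside 2358 and 1372 of 5p. For miR-30d, miR-26a, miR-342, miR-328, let-7a and let-7f, no count of the lesser arm was found in either library.

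The stricter set, in which each arm had 10 or more counts in each library so that both arms are among the 160, held 19 hairpins. Replicate 1 alone would have given 43 such hairpins and replicate 2 alone 20. The 5p arm was greater in 13 and the 3p arm in 6, and 17 kept the same greater arm in both libraries. One arm held at least 90% in both libraries in 7 of the 19, against 15 of 43 in replicate 1 alone. This set is made of hairpins with a countable lesser arm, so its even splits follow in part from the choice. Among the 7 were miR-125b, miR-138, miR-9, miR-127 and miR-29c, in which the lesser arm was rare but reached 10 counts because the hairpin was abundant. The neuronal miR-9 had 19336 counts of 5p and 382 of 3p in replicate 1 (98.1%, 97.9 to 98.3%), and 10771 and 207 in replicate 2 (98.1%, 97.8 to 98.4%). Its 3p strand, formerly named miR-9*, was still at rank 27 overall. The others were miR-30e, with 95.5% and 93.6% of counts on 5p, and miR-770, with 91.2% and 94.6%.

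**Figure D2:**
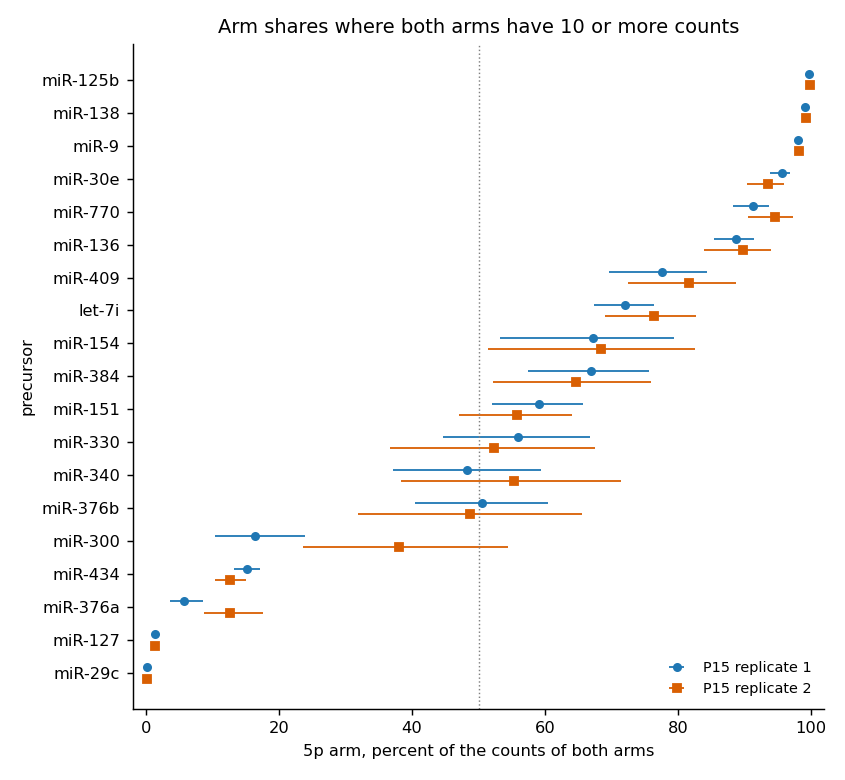
Percent of counts on the 5p arm (horizontal axis) for the 19 hairpins in which each arm had 10 or more counts in each P15 library; circles are replicate 1, squares replicate 2, bars exact 95% intervals, and the dotted line marks equal arms. Both libraries lie close together for nearly every hairpin, from miR-125b at over 99% 5p to miR-29c at under 1%, with the widest gap at miR-300.

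A smaller group loaded both arms in comparable amounts, and so carried a pair of unrelated seeds from each hairpin. miR-376b had 52 counts of 5p and 51 of 3p in replicate 1, and 18 and 19 in replicate 2. miR-340 had 40 and 43, then 21 and 17. miR-330 had 47 and 37, then 23 and 21. In these 3 hairpins the interval of the 5p share included equal arms in each library, so no greater arm could be named at this depth. miR-151, encoded in an intron of Ptk2, had 124 counts of 5p and 86 of 3p in replicate 1 (59.0%, 52.1 to 65.8%), and 78 and 62 in replicate 2 (55.7%, 47.1 to 64.1%). miR-384, a brain-enriched relative of miR-30 whose 5p strand shares the miR-30 seed, had 75 and 37, then 44 and 24 (67.0% and 64.7% on 5p). miR-154 had 37 and 18, then 26 and 12 (67.3% and 68.4%). These hairpins leaned to 5p in both libraries.

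let-7i kept more of its 3p arm than most of its relatives. It had 296 counts of 5p and 115 of 3p in replicate 1 (72.0%, 67.4 to 76.3%), and 123 and 38 in replicate 2 (76.4%, 69.1 to 82.7%). let-7a, let-7f, let-7c, let-7b and let-7e had 0 counts of a 3p arm in both libraries. let-7g had 252 counts of 5p and 5 of 3p, then 109 and 3, and let-7d 261 and 25, then 75 and 2. miR-98 had 44 and 5, then 16 and 3. The upper limits of the 3p share in replicate 1 were 4.48% for let-7g, 12.6% for let-7d and 22.2% for miR-98. All 3 lie under the lower limit of 23.7% for let-7i in the same library. In replicate 2 the limits were 7.63%, 9.07% and 39.6% against 17.3%, so there miR-98 overlapped let-7i. The let-7i-3p strand alone was at rank 77. Its sequence begins with C and has none of the let-7 seed.

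Splits that moved between the libraries were few. The greater arm differed in 6 of the 144: miR-376b, miR-340, miR-106b, miR-132, miR-361 and miR-501. All 6 had 19 or more counts of the arms together in replicate 1 and 16 or more in replicate 2. miR-132, an activity-regulated neuronal miRNA, had 19 counts of 5p and 23 of 3p in replicate 1, and 15 and 3 in replicate 2. Intervals of the share did not overlap between the libraries for 3 of 144. miR-376a had 23 counts of 5p and 376 of 3p, then 30 and 206 (94.2% and 87.3% on 3p), and is from a family whose hairpins are known to be edited in brain. miR-181a had 313 and 2, then 103 and 7, and miR-107 had 1 and 69, then 5 and 16. miR-300 moved most among the 19, from 83.6% to 61.9% on 3p, with 107 and then 26 counts of 3p, and its intervals overlapped. The median difference between the libraries was 1.10 percentage points over the 144 and 2.26 over the 19.

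The amount of a hairpin and the split between its arms were each compared between the libraries. As a measure of spread, the chi-square of the 2 libraries divided by its degrees of freedom is near 1 when independent counts differ by sampling alone. For the abundance of the 160 it was 13.0. For the summed counts of the 19 hairpins it was 37.6, and for the arm split of the same hairpins 1.64. The split rests on the counts of the rarer arm, which are few, so a shift of the same size is harder to see in it. Whether the amount or the split changed more between the libraries therefore cannot be read from these values. In the shallow P7 libraries, 50 of the 144 hairpins had 10 or more counts in each. The greater arm was the same as at P15 in 50 of 50. In all 50 the greater arm held at least 72.0% in each P15 library, so even hairpins were not compared. miR-376b (12 and 5 counts at P7), miR-330 (13 and 4) and miR-384 (15 and 0) were too scarce to enter. For miR-434 the 3p share was 76.9% and 74.2% at P7 beside 84.8% and 87.4% at P15. For let-7i the 5p share was 76.5% and 70.0% at P7, from 34 and 10 counts, beside 72.0% and 76.4%.

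Greater arms began with U more often than their partners did. Both sequences were at hand for 103 of the 144 hairpins. The greater arm began with U in 47 of 103 (45.6%), and the lesser arm in 20 (19.4%). Beginnings with A were similar, 36 against 32. Beginnings with C numbered 11 against 28, and with G 9 against 23. Among the 73 hairpins whose greater arm averaged at least 90% over the libraries, 36 greater and 12 lesser arms began with U. The first 4 bases held more A and U in the greater arm in 46 of 103, as many in 31 and fewer in 26. The even pairs printed above include both patterns: miR-330-5p begins with U and its 3p partner with G, while both arms of miR-340 begin with U. These shares describe the hairpins and were not tested, since homologous hairpins share sequence. Over the 143 miRNAs with a sequence, 66 (46.2%) began with U, beside 687 of 1679 listed ones (40.9%). Weighted by counts, 79.1% of their counts began with U in each library.

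A few members pair with a miRNA of another name over most of their length. miR-9b-3p, with 79 and 53 counts, is complementary to miR-9-5p over 21 bases, and miR-3071-3p, with 19 and 12, to miR-136-5p over 20 bases. miR-9-5p had 19336 and 10771 counts, and miR-136-5p 398 and 140. Whether counting used the strand is not given in the sources used here, so the counts of such pairs are uncertain. Further pairs were miR-219a-5p with miR-219c-3p, miR-24-3p with miR-3074-5p and miR-30e-3p with miR-30f, whose second members had at most 15 counts. Among the 143 members with a matched sequence, 25 lay within 2 mismatches of another and 21 had more than 1 annotated precursor. The 17 unmatched members could not be compared, so both numbers are lower limits. How reads matching several miRNAs were assigned is not stated.

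On the genome, the largest group of members came from the imprinted Dlk1-Dio3 locus, whose miRNAs are transcribed from the maternal chromosome in long non-coding RNAs and are enriched in brain. It was taken here as mm10 chr12:109563692-109747960, and holds 59 annotated precursors. Of its 110 listed mature strands, 78 and 66 had a count in replicates 1 and 2. It gave 40 of the 143 members that could be placed (28.0%), with 7.55% and 6.37% of all counts. Among the 40, miR-3071-3p lies on the minus strand, opposite miR-136. miR-127-3p alone, at rank 8, had 7310 and 3131 counts, and without it the locus held 3.23% and 3.05%. At P7 the same 40 held 10.9% and 9.75%, as plain values.

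The members of the locus fell mainly into a pair of clusters. The first cluster runs from Mir770 to Mir136, on the plus strand of chr12:109563692-109595388, and includes the miRNAs antisense to Rtl1. It has 14 precursors, 10 of them with a placed member, and its 14 placed members held 6.0% and 4.83% of counts. They ranged from miR-127-3p, with 43241 and 33262 CPM, to miR-673-5p, with 142 and 106 CPM, a span of 305-fold and 313-fold. The second cluster runs from Mir379 to Mir3072, on the plus strand of chr12:109709060-109747960. It has 36 precursors, 18 with a placed member, and the 23 placed members assigned to it held 1.45% and 1.42%. miR-666-5p, with 27 and 17 counts, also lies within these coordinates but was not assigned to the cluster. miR-376c-3p and miR-487b-3p were not placed. None of these miRNAs is in the sums, although their hairpins are in the arm counts below. The members assigned to the second cluster were more alike. They ranged from miR-495-3p at 3194 and 3240 CPM to miR-154-3p, the lesser arm of miR-154, at 106 and 127 CPM, a span of 30-fold and 25.4-fold. The plot along the locus shows miR-127-3p far above its neighbours, and miR-434-3p, miR-495-3p, miR-770-5p, miR-376a-3p and miR-136-5p as the next peaks.

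**Figure D3:**
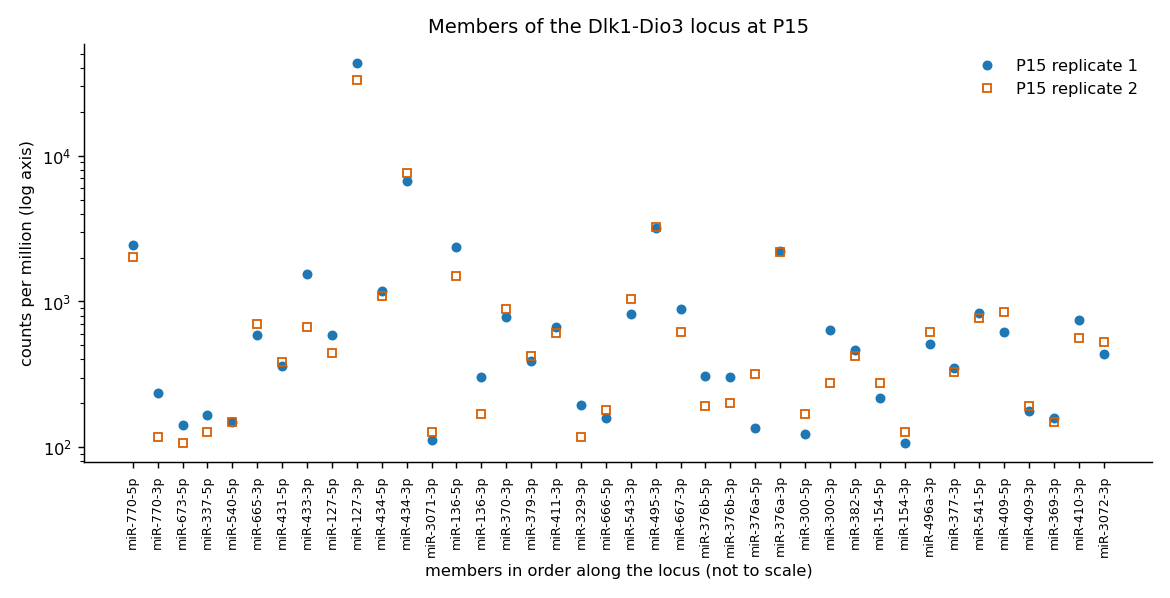
CPM on a log axis of the 40 members of the Dlk1-Dio3 locus in their order along chromosome 12, not to scale. All lie on the plus strand except miR-3071-3p. Circles are replicate 1 and squares replicate 2. miR-127-3p reached 43241 and 33262 CPM, while most neighbours lay between 100 and 1000 CPM in both libraries.

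Fewer hairpins of this locus than of the others were nearly one-sided, given as a description. Of its 34 hairpins with 10 or more counts in each library, 22 favoured 3p and 12 favoured 5p. In 18 of 34, 1 arm held at least 90% in each library, beside 82 of 110 hairpins elsewhere. The greater arm held 75% or less in each library in 4 of 34 and in 9 of 110. The median share of the greater arm was 92.7% here and 99.2% elsewhere. Of the 19 hairpins with both arms among the members, 9 were from this locus: miR-127, miR-434, miR-770, miR-376a, miR-136, miR-409, miR-300, miR-376b and miR-154. The median count of both arms was 101 in the locus and 112 elsewhere in replicate 1, and 49.5 and 47 in replicate 2. The other hairpins include miR-124 and miR-9, which had more counts than any hairpin of the locus. The difference in arm use, and the part of depth in it, was not tested. miR-434, for example, had 201 counts of 5p and 1125 of 3p in replicate 1, and 103 and 714 in replicate 2, so its 5p strand alone was at rank 47. miR-409 had 104 and 30, then 80 and 18, or 77.6% and 81.6% on 5p. miR-379 had 32 counts of 5p and 66 of 3p, then 9 and 40, and miR-411 had 10 and 113, then 5 and 57. Others were one-sided, such as miR-370, miR-410 and miR-496a, with 0 counts of 5p in both libraries beside 132, 127 and 86 counts of 3p in replicate 1.

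Outside this locus the clusters were small, and their members ranged from close in level to very unequal. miR-191-5p (438 and 414 CPM) and miR-425-5p (373 and 393 CPM) of the Mir191 and Mir425 cluster, for example, were close. Built from the 143 members with a matched sequence, 18 clusters had at least 2 precursors, each with a member, spaced within 10 kb on 1 strand. The 18 include the pair of clusters of the Dlk1-Dio3 locus. The 17 unmatched members, such as miR-23b-3p, miR-30d-5p and miR-1a-3p, could not enter. A matched member could also be left unassigned, as miR-666-5p was, so counts per cluster are lower limits. The most abundant was Mir29b-2 with Mir29c on chr1:195037040-195037634, plus strand, at 11.7% and 15% of counts. miR-29b-3p can also come from Mir29a with Mir29b-1 on chromosome 6, so its counts appear under both clusters. The Mir30c-1 and Mir30e cluster, on the minus strand of chr4:120769534-120772697, held 1.12% and 0.835%, from miR-30c-5p at 6371 and 4876 CPM to miR-30e-3p at 213 and 223 CPM. miR-30e-3p is the lesser arm of its hairpin, and miR-30e-5p was at 4567 and 3251 CPM. miR-30c-5p can also come from a precursor on chromosome 1, so its counts may not all belong to this cluster. The Mir23a, Mir27a and Mir24-2 cluster, on the plus strand of chr8:84208518-84208921, held 0.289% and 0.297%. Its miR-24-3p, at 2271 and 2316 CPM, was more than 10-fold above miR-27a-3p, at 195 and 170 CPM, from the same transcript. miR-24-3p has a second precursor beside Mir27b on chromosome 13, and its counts cannot be split between the precursors. Without it the mean share of the Mir23a cluster was 0.064% in place of 0.293%. On the minus strand of chr13:48536012-48538272, let-7d, let-7f and let-7a held 0.686% and 0.490%. let-7f-5p can also come from Mirlet7f-2 on chromosome X, and without it the mean share was 0.361% in place of 0.588%. The count files list 2 forms of the let-7a 3p arm, so let-7a-5p may also have a precursor that was not placed. The part of these shares that belongs to this cluster may then be smaller. The members of this cluster were closer in level, with let-7a-5p at 2620 and 2263 CPM and let-7d-5p at 1544 and 797 CPM. Mirlet7e with Mir125a on chromosome 17 showed the opposite: miR-125a-5p had 13948 and 14575 CPM and let-7e-5p 668 and 319 CPM. miR-99b-5p, at 1810 and 2093 CPM, is also encoded on chromosome 17 but was not assigned to a cluster. Mir206 with Mir133b on chromosome 1 gave miR-133b-3p at 6122 and 6576 CPM and miR-206-3p at 2313 and 1519 CPM.

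Between the libraries the 160 miRNAs largely kept their levels, with a set that was lower in replicate 2. Pearson's correlation of log2 CPM across the 160 was 0.965 and Spearman's 0.927, as a description across miRNAs of 2 libraries. Without the 10 most abundant, Pearson's correlation was 0.926. The median log2 ratio of replicate 2 to replicate 1 was -0.10 and its SD 0.59. Over 2-fold lower in replicate 2 were 15 of 160 (9.38%), and over 2-fold higher 4 of 160 (2.5%). None of these 19 was at ranks 1 to 40, 10 were at ranks 41 to 100 and 9 further down. The 95% interval of the fold left out equality for 35 that were lower and 16 that were higher in replicate 2. Spearman's rho of the log2 ratio was 0.07 with percent GC and -0.09 with length over 143 miRNAs.

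**Figure D4:**
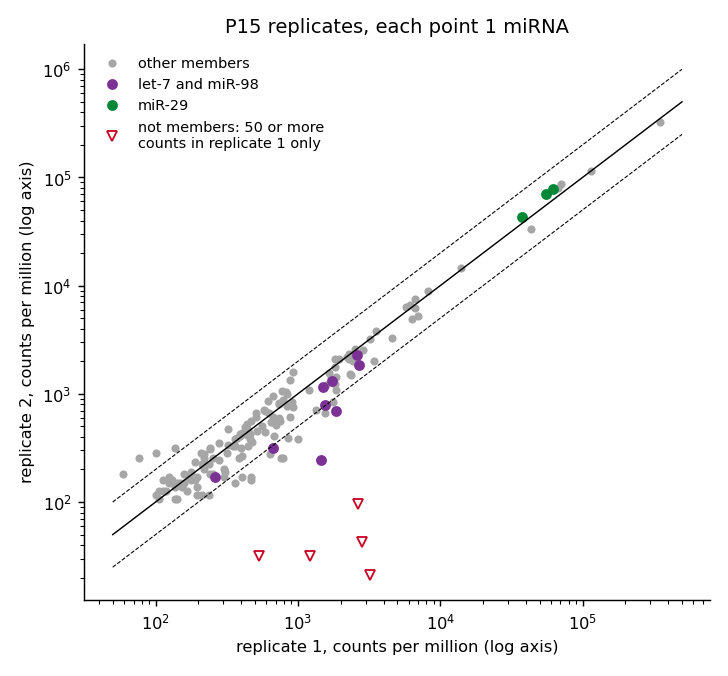
CPM of the 160 miRNAs in P15 replicate 1 (horizontal) and replicate 2 (vertical), both on log axes; the solid line marks equality and the dashed lines 2-fold. All 9 let-7 and miR-98 points (purple) lie below the line and the 3 miR-29 points (green) above it; open triangles are 5 miRNAs outside the 160 that had 50 or more counts in replicate 1 and under 10 in replicate 2.

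The largest gap was that of let-7b-5p, with 247 counts in replicate 1 and 23 in replicate 2, a CPM 5.98-fold lower in replicate 2 (95% interval 3.89 to 9.61). miR-128-3p, a neuronal miRNA that restrains excitability, had 133 and 24 counts and was 3.09-fold lower. miR-708-5p had 129 and 24 counts and was 2.99-fold lower. miR-744-5p (79 and 15), miR-140-3p (79 and 16) and miR-22-3p (61 and 14) were 2.93-fold, 2.75-fold and 2.43-fold lower. The near-identical miR-103-3p (169 and 36) and miR-107-3p (69 and 16), which share the seed GCAGCAU, were 2.61-fold and 2.4-fold lower. miR-433-3p of the Rtl1 cluster (261 and 63) was 2.31-fold lower, while its neighbours miR-127-3p and miR-434-3p were not over 2-fold apart. Higher in replicate 2 were miR-192-5p with 13 and 24 counts (3.32-fold), miR-148b-3p with 10 and 17 (3.05-fold), miR-365-3p with 17 and 27 (2.85-fold) and miR-376a-5p with 23 and 30 (2.34-fold). All 4 had 30 or fewer counts in either library.

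Members of some seed groups lay on the same side between the libraries. The 9 let-7 and miR-98 strands held 1.43% of counts in replicate 1 and 0.880% in replicate 2, and all 9 were lower in replicate 2, with a median log2 ratio of -0.61 beside -0.10 over the 160. Of all 160, 90 were lower in replicate 2. let-7a-5p had 443 and 213 counts and was 1.16-fold lower, with an interval from 0.981 to 1.37 that included equality. let-7f-5p (456 and 173) was 1.47-fold lower, let-7d-5p (261 and 75) 1.94-fold, let-7e-5p (113 and 30) 2.1-fold and let-7c-5p (312 and 66) 2.63-fold. The let-7 strands are near copies: let-7a-5p lies within 2 mismatches of 7 others of the group, and let-7b-5p and let-7c-5p, the pair of the group that fell furthest below replicate 1, within 1 of each other. How reads were shared among them is not stated, so single strands are less certain than the sum. The miR-29 group went the other way, with 15.5% and 19.3% of counts and all 3 strands higher in replicate 2. The 4 strands with a matched sequence and the miR-30 seed held 1.30% and 0.981%, and 3 of 4 were lower. That sum leaves out miR-30d-5p (1128 and 591 counts) and miR-30b-5p (425 and 245 counts), for which no sequence was matched. Those of miR-181, known from neurons and lymphocytes, held 0.310% and 0.181% (3 of 3 lower). Those of miR-99 and miR-100 held 0.321% and 0.381% (0 of 3 lower). These 2 libraries cannot tell a difference between animals from one in preparation.

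**Figure D5:**
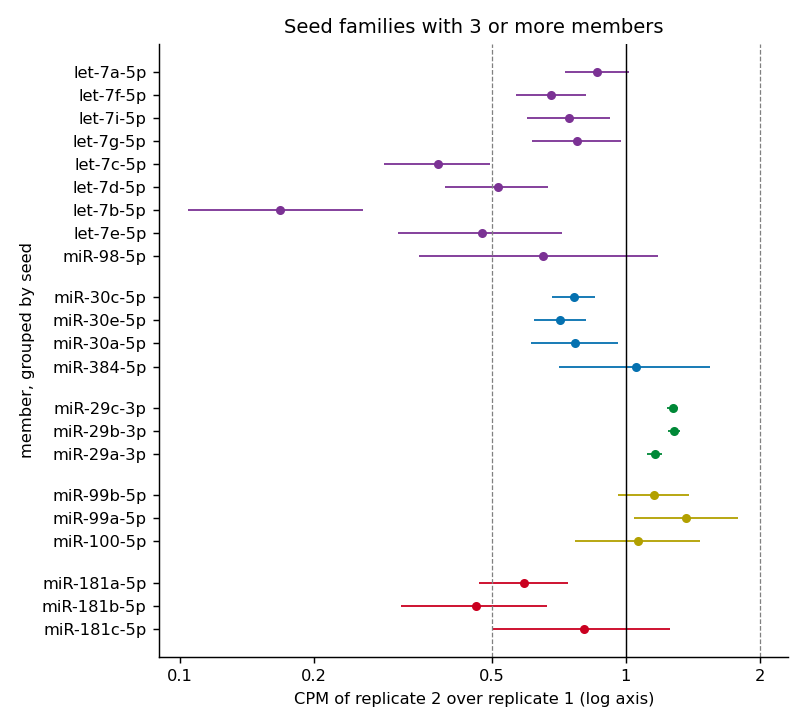
CPM of P15 replicate 2 over replicate 1 on a log axis for the members of the 5 seed groups with at least 3 members; points are ratios, bars exact 95% intervals of counting error, the solid line marks equality and the dashed lines 2-fold. The let-7 group lies left of equality, lowest at let-7b-5p (0.167), and the miR-29 group right of it, at 1.16 to 1.28.

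Outside the 160 lay 2.27% and 0.745% of the counts of replicates 1 and 2, and 5 abundant species accounted for 1.04% in replicate 1. They had 50 or more counts in replicate 1 and under 10 in replicate 2. The reverse, found for 0 miRNAs, would have needed a larger gap in CPM, since replicate 2 was shallower. miR-3473b had 541 and 2 counts, a 151-fold gap (41.5 to 1247). miR-12188-5p had 475 and 4, miR-690 447 and 9, and miR-320-3p 90 and 3, with gaps of 66.1-fold, 27.7-fold and 16.7-fold. miR-6240 had 205 and 0 counts, so its CPM was at least 38.0-fold lower in replicate 2 against a floor of 3 counts in that library. At P7 the same 5 were all counted in both libraries, from 95 and 198 counts for miR-6240 to 9 and 1 for miR-320-3p. The cause of the gaps was not tested.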

How the data were processed

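Counts per mature miRNA were used as deposited by the authors, without normalization; no total or unmapped row held counts. The submitters' processing notes name mm10 as the build and list Bowtie2 2.4.2, STAR 2.5.2a and cutadapt 2.10 beside UMI-tools, deepTools 3.1.3 and DESeq2 1.36.0, without saying which made the miRNA counts. Names of the deposited count files carry a word taken to mean that PCR copies were left in. Samples were grouped by title. CPM were counts divided by the library total. Arms were paired by name and clusters built within 10 kb on 1 strand. Positions, sequences, seeds and precursor copies were taken from RefSeq. Intervals are exact Clopper-Pearson at 95%, and folds use the matching interval of a share of 2 counts. No test was run on the 2 libraries. Python 3.11.15, numpy 2.4.6, pandas 2.3.3, scipy 1.17.1 and matplotlib 3.10.9 were used, and the scripts were checked on simulated data.

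The members, lists, marker miRNAs and rules were chosen with earlier results of these data known. Named miRNAs were those at ranks 11 to 40, seed groups of at least 3, the 10 most abundant and 10 most even arm pairs, pairs that changed greater arm, the 6 clusters with most members, the 10 largest folds in each direction, the miRNAs with 50 or more counts in 1 library and under 10 in the other, and those beside the limit of 10 counts. Values of those that matter are printed and further names were chosen after their values were seen. Peak lists and the target and input libraries were not used here.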

Additional observations from a re-analysis of the deposited data

How the results depend on the processing

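With a minimum of 50 counts 74 miRNAs qualified, with 10 CPM in place of counts 293, and with 1 library alone 166 to 242. Limits of 5 and 20 counts gave 206 and 119. Shares of counts by rank moved by less than the spread between the libraries with the counts summed or with the counts of the 160 as the total, except that the 160 make 100% of their own counts by construction. With 1 library alone they lay within that spread by construction. Hairpins with both arms counted numbered 10 with 20 counts per arm, 144 with 10 counts for the arms together, and 20 to 43 with 1 library alone. Those with at least 90% on 1 arm numbered 100 for the arms summed and 7 to 15 with 1 library alone. Differences between the libraries over 1.5-fold numbered 35 and over 3-fold 4, beside 19 over 2-fold. With a minimum of 50 counts 3 were over 2-fold, and with size factors 16, of which 12 were lower in replicate 2. The correlation was 0.98 with a minimum of 50 counts, 0.953 with 5 and 0.926 without the 10 most abundant. Clusters numbered 19 within 5 kb, 22 within 50 kb and 19 to 24 with 1 library alone. The single-library counts of members, hairpins and clusters were chosen after seeing the data. Without miR-124-3p in the total, the CPM of 30 named miRNAs moved, since a smaller total raises every CPM by construction. Counting only members of 1 cluster moved the shares of 2 clusters, and those of 2 others stayed within the spread between the libraries. The Mir29b-2 with Mir29c and the Mir30c-1 with Mir30e clusters could not be counted this way, because too few precursors remained. No paired analysis was possible because no result came from a test between groups. Depth limits the shallower library to members above 106 CPM, and 2 libraries give an SD but no firm estimate of the spread between animals.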
